A study of Canis lupus familiaris with 6 samples.

Results

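The genes described here are the cadherins, the protocadherins and their cytoplasmic alpha and delta catenins, measured in 3 canine mammary tumor cell lines grown with or without myeloid-derived suppressor cells (MDSC). The members were taken by gene symbol from the annotation printed in the array files: the CDH, PCDH, FAT, CELSR and DCHS genes with CTNNA1 to CTNNA3, CTNND1 and CTNND2, leaving out CDH1 and CDH2. The rule found 57 genes with 73 probes among 35582 named genes with 43603 probes. They were 16 CDH cadherins, 7 genes of the Fat, Dachsous and CELSR group, 4 catenins, 8 protocadherins outside the gene clusters, and 8 alpha, 8 beta and 6 gamma protocadherins. CTNNA2, CELSR3 and DCHS1 were not among them.

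The lines were P114, from an anaplastic mammary cancer, CMT-U27, from a simple carcinoma, and CMT-U309, from a spindle cell mammary tumor. Each line was compared between co-culture with MDSC and monoculture. The MDSC were sorted from blood of healthy dogs and kept in inserts above the tumor cells for at least 72 h by the sample labels (the study's methods give a shorter time). Every line was hybridized on 2 two-color arrays, one with the co-culture RNA in Cy5 and the other with the dyes swapped, which gave 6 arrays and 12 channels, 4 per line.

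Classical cadherins are calcium-dependent adhesion molecules whose tails bind delta and beta catenin, and alpha catenin links that complex to actin. Protocadherins share the extracellular repeats but have other tails, and the clustered alpha, beta and gamma genes are known for giving single neurons different combinations of surface proteins. Fat, Dachsous and CELSR cadherins are giant molecules that act in tissue polarity and, for Fat and Dachsous, in the Hippo growth pathway. In tumors of epithelial origin a change from epithelial to stromal cadherins is a known mark of mesenchymal cells.

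The beta protocadherin genes are near-copies that lie side by side on chromosome 2, so what their probes share bears on whether their levels can be told apart. The 60-base probes of 7 of the 8 beta genes are printed in cluster order with canFam2 coordinates as the array files give them, and the capitals mark the longest run that each shares with the probe of another beta gene.
PCDHB2, chr2:39010509-39010568, plus strand: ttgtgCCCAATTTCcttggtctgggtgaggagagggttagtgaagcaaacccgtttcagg
PCDHB3, chr2:39017083-39017142, plus strand: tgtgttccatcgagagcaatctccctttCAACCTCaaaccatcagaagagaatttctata
PCDHB4, chr2:39031978-39032035, plus strand: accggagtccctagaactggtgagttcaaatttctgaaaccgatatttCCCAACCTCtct
PCDHB5, chr2:39046910-39046969, plus strand: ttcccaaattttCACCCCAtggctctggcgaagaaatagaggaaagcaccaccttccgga
PCDHB6, chr2:39060128-39060187, plus strand: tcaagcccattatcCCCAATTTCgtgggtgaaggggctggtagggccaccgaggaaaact
PCDHB7, chr2:39073680-39073739, plus strand: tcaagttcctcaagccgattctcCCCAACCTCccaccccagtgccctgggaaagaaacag
PCDHB15, chr2:39103462-39104769, plus strand: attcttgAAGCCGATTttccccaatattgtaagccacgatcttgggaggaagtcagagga
Over all 8 beta probes the longest shared run was 6 to 9 bases. The genes themselves may still share more than the probes do, and hybridization of one gene's RNA to the probe of another was not tested.

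A second set holds probes of 4 members whose levels differed between the lines, with 2 probes of CTNNA1 that gave differences of like size. They have no capitals, since no part of them is compared.
CDH11, chr5:87128176-87128235, plus strand: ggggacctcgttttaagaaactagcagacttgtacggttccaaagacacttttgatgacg
CDH13, chr5:71504271-71504330, minus strand: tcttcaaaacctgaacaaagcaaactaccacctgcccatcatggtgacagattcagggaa
PCDH7, the dimmer probe, chr3:83208585-83208644, minus strand: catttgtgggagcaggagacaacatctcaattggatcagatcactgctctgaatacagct
CTNNA1, first probe, chr11:29473437-29473496, plus strand: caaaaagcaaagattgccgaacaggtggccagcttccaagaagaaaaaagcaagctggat
CTNNA1, second probe, chr11:29351922-29360386, plus strand: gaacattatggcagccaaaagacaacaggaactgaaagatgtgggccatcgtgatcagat
The CTNNA1 probes lie in different parts of the gene: the second one covers positions of the genome that are far apart, as a probe across an exon junction does.

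Most members gave little signal. Only 14 of the 73 member probes (19.2%) were well above background, by the scanner software's own flag (called bright from here on), in all 12 channels, against 47.6% of all probes, and 16 (21.9%) were so in none, against 14.3%. By the brightest probe of each gene, 18 of 57 genes were well above background in all 4 channels of P114, 22 in those of CMT-U27 and 17 in those of CMT-U309. No alpha protocadherin reached that in any line, whereas 3, 6 and 4 of the 8 beta protocadherins did in P114, CMT-U27 and CMT-U309.

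Limits that touch every result come from the arrays. The 3 lines were scanned separately, with 1 line per scan, so line and scan cannot be told apart, and each line had 1 culture per condition. Turned to co-culture over monoculture, the 2 arrays of P114 had log2 ratios that correlated at -0.40 over all probes and at -0.14 over probes bright in all channels, against 0.27 and 0.45 for CMT-U27 and -0.05 and 0.24 for CMT-U309. The correlations are across probes, which are not independent. Ratios are therefore given with and without P114, and the direction of a P114 ratio is not settled by its own pair. Of the members bright in all 4 channels, 9 of 18 had the same sign on both P114 arrays, 15 of 22 on both CMT-U27 arrays and 11 of 17 on both CMT-U309 arrays, where over all such genes the shares were 42.9%, 64.1% and 55.5%.

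Levels are given as log2 of the scanner software's processed signal after scaling every channel to a common median. A level is compared only with the level of the same probe in another channel. A gene was counted as apart between 2 lines when its brightest probe was well above background in all 4 channels of at least 1 of them, the means differed by over 2-fold and the 4 channels of one line lay above all 4 of the other. There was no test between lines, since a line had no replicate cultures. In bulk RNA, fewer cells that carry a transcript and less transcript per cell cannot be told apart.

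Several members differed widely between the lines. By that count, 17 of the 27 member genes bright in all 4 channels of at least 1 line were apart in at least 1 pair. The share of all genes apart in any pair was not counted, and the shares by pair follow. P114 lay above CMT-U27 in 7 of 26 members (26.9%), where all genes gave 12%, and below it in 6 (23.1%), where all genes gave 17.1%. Between P114 and CMT-U309, 3 of 21 members (14.3%) were higher in P114 (all genes 9.8%) and 3 (14.3%) higher in CMT-U309 (all genes 8.26%), and the sum of 6 became 11 without the dye-swapped CMT-U309 array. CMT-U27 lay above CMT-U309 in 5 of 25 (20%, all genes 21.1%) and below it in 6 (24%, all genes 13.4%). CDH11 and PCDHB2 had the widest differences, and CDH13, CTNNA1, FAT4 and PCDH7 shared one pattern, low in CMT-U27 alone.

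**Figure D1:**
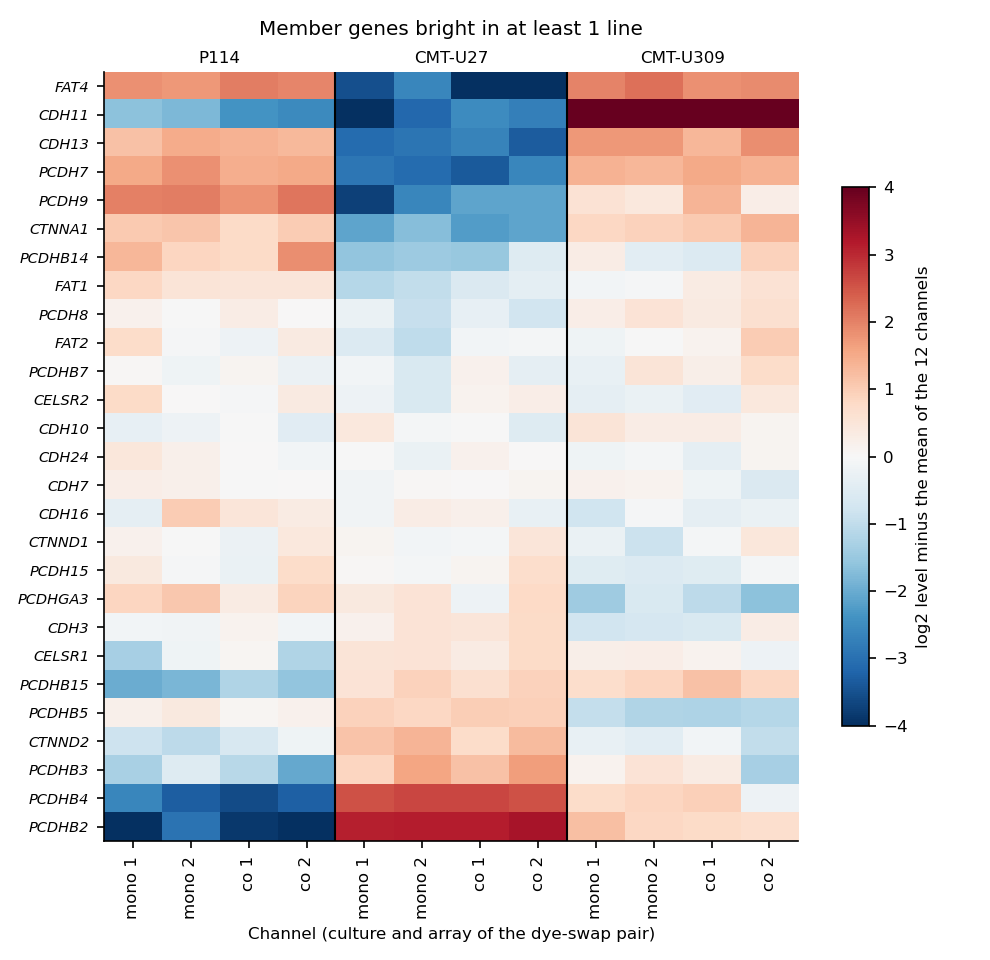
Levels of the 27 member genes that were well above background in all 4 channels of at least 1 line. Each row is a gene by its brightest probe, each column a channel (mono, monoculture; co, co-culture; 1 and 2, the arrays of the dye-swap pair), and the color is the log2 level minus the mean of that gene over the 12 channels, cut at 4 on either side; FAT4, CDH11, CDH13, PCDH7, PCDH9 and CTNNA1 at the top are low in CMT-U27, and PCDHB2 and PCDHB4 at the bottom are low in P114.

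Among the classical cadherins, CDH11 (OB-cadherin, a cadherin of mesenchymal and bone-forming cells) was bright in CMT-U309 only. Its levels there were 9.99 and 10.12 in monoculture and 10.57 and 10.45 in co-culture. In P114 it read 3.40, 3.25, 2.65 and 2.51 in the same order, and in CMT-U27 0.83, 1.92, 2.54 and 2.32, none of them well above background. CDH11 was at least 68.0-fold higher in CMT-U309 than in P114 and at least 91.6-fold higher than in CMT-U27, where the bound sets the dim channels to the lowest signal that still counted as well above background. All bounds were taken after loess normalization within arrays and Aquantile normalization between arrays. They are therefore not on the scale of the printed levels and need not match differences of these. Where a line was well above background in some of its channels only, the number of such channels stands beside the fold. The words "at least" mark the bound, and a fold without them is the plain difference of the mean levels, also for such lines.

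CDH13 (T-cadherin, which lacks the cytoplasmic tail and is held in the membrane by a lipid anchor) split the lines another way. It read 10.29 and 10.58 in monoculture and 10.51 and 10.40 in co-culture of P114, and 10.84, 10.84, 10.44 and 10.96 in CMT-U309. CMT-U27 lay far below, at 6.03 and 6.20 in monoculture and 6.42 and 5.76 in co-culture, still well above background in all 4. The differences were 20.2-fold against P114 and 25.4-fold against CMT-U309.

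CDH3 (P-cadherin, an epithelial and myoepithelial cadherin of the mammary gland) was the reverse in order but not apart by the rule. Its mean level was 5.83 ± 0.25 (SD, 4 channels) in CMT-U27, 5.28 ± 0.13 in P114 and 4.90 ± 0.50 in CMT-U309, and it was well above background in 4, 2 and 3 of the 4 channels. The channels of CMT-U309 and P114 overlapped. CDH5 (VE-cadherin of endothelial cells) was well above background in no channel of any line at either of its 2 probes. Among the other endothelial markers, TEK was bright in no channel, whereas PECAM1, VWF and TIE1 were well above background in all 12. KDR was so in 0, 4 and 4 channels and ERG in 2, 2 and 4 (P114, CMT-U27 and CMT-U309).

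CDH7, CDH10, CDH16 and CDH24 were not apart between any lines by the rule. CDH10 ranged from 5.45 to 6.49 over the 12 channels and CDH7 from 4.89 to 5.73. CDH16 (a kidney cadherin) ranged from 8.19 to 10.01 at its bright probe, whereas its second probe was well above background in 2 channels only. The probe of CDH24, which has 78.3% G and C bases, was bright in all 12 channels.

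**Figure D2:**
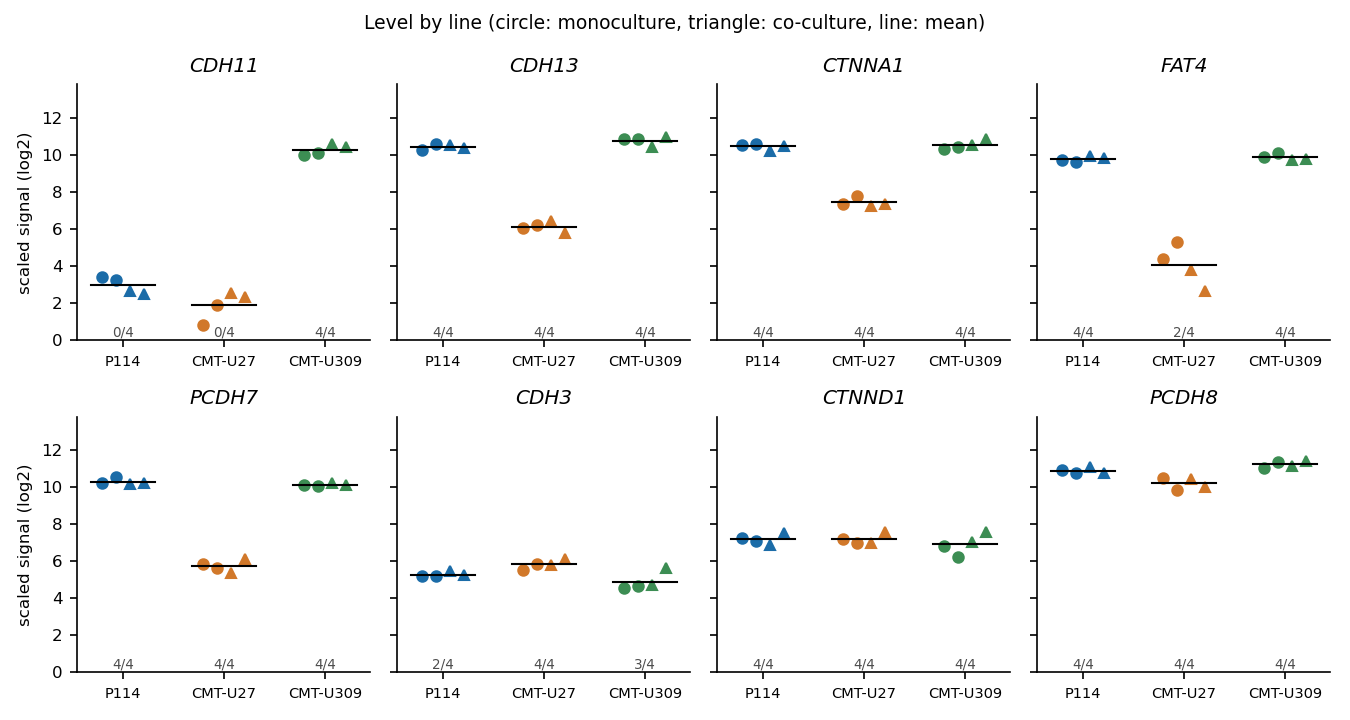
Scaled signal (log2) of 8 members by line, with circles for monoculture, triangles for co-culture, a line for the mean of the 4 channels, and below them the number of channels well above background. CDH13, CTNNA1, FAT4 and PCDH7 are lowest in CMT-U27, CDH11 is bright in CMT-U309 alone, the channels of CTNND1 overlap between all lines, and PCDH8 is lower in CMT-U27 than in CMT-U309.

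The catenins differed between the lines gene by gene. CTNNA1 (alpha-E-catenin, the actin-binding partner of the cadherin complex) was measured by 3 probes, all well above background in all 12 channels. The brightest read 10.51 and 10.59 in monoculture and 10.24 and 10.49 in co-culture of P114, 10.31, 10.40, 10.52 and 10.84 in CMT-U309, and 7.35, 7.77, 7.23 and 7.37 in CMT-U27. It was 8.14-fold lower in CMT-U27 than in P114 and 8.50-fold lower than in CMT-U309. The other probes gave 8.97-fold and 6.97-fold against P114, and 9.08-fold and 8.17-fold against CMT-U309, so all 3 probes put CMT-U27 below the others by a like factor.

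CTNND1 (p120-catenin, which holds cadherins at the cell surface) averaged 7.19 ± 0.27 in P114, with CMT-U27 also at 7.19 ± 0.27 and CMT-U309 at 6.91 ± 0.54 (SD, 4 channels), and the channels overlapped. CTNND2 (delta-catenin, a neural member of the p120 family) was higher in CMT-U27, at 5.44 ± 0.28, than in CMT-U309, at 3.87 ± 0.38 with 2 of 4 channels well above background, by at least 2.83-fold. It was well above background in no channel of P114, which gave a bound of at least 2.21-fold there. CTNNA3 (alpha-T-catenin of heart muscle) was well above background in 3 of 4 channels of CMT-U309, 1 of P114 and none of CMT-U27. Of the partners that are no members, CTNNB1 (beta-catenin) was bright in all 12 channels, with mean levels of 15.24, 14.93 and 13.92 in P114, CMT-U27 and CMT-U309.

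FAT4 and FAT1 (atypical cadherins with tumor suppressor roles) were both lower in CMT-U27. The brighter FAT4 probe read 9.74 and 9.64 in monoculture and 9.94 and 9.85 in co-culture of P114, and 9.88, 10.09, 9.74 and 9.78 in CMT-U309. In CMT-U27 it read 4.39 and 5.29 in monoculture, and 3.80 and 2.66 in co-culture, and 2 of these 4 channels were well above background. FAT4 was at least 33.7-fold higher in P114 and at least 38.5-fold higher in CMT-U309. The second FAT4 probe, also well above background in 2 channels of CMT-U27, gave at least 38.5-fold and 45.1-fold. FAT1 was 2.55-fold lower in CMT-U27 (7.37 ± 0.35) than in P114 (8.72 ± 0.16), with CMT-U309 at 8.33 ± 0.31.

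The CELSR genes, which act in planar polarity, gave an unequal picture by probe. The brightest CELSR2 probe, with 83.3% G and C bases, averaged 11.92 ± 0.38, 11.55 ± 0.39 and 11.49 ± 0.39 in P114, CMT-U27 and CMT-U309, with overlap. Its other probe, with 35.0% G and C, averaged 7.01 ± 0.27, 9.79 ± 0.12 and 6.42 ± 0.63 in the same order, which put CMT-U27 6.87-fold above P114 and 10.3-fold above CMT-U309, where 3 of 4 channels were well above background. The 2 probes of this gene therefore disagree on whether the lines differ, and which of them follows the transcript was not tested. CELSR1 was at least 2.02-fold higher in CMT-U27 (6.36 ± 0.17) than in P114 (5.18 ± 0.71), where 2 of 4 channels were well above background. FAT2 was bright in all lines, from 11.03 to 13.07 over the 12 channels.

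Of the protocadherins outside the clusters, PCDH7 split the lines like CDH13. It read 10.24 and 10.56 in monoculture and 10.17 and 10.22 in co-culture of P114, 10.12, 10.05, 10.22 and 10.10 in CMT-U309, and 5.83, 5.65, 5.37 and 6.12 in CMT-U27. That was 23.5-fold below P114 and 20.8-fold below CMT-U309, and the dimmer probe gave 19.7-fold and 21.6-fold, with 3 CMT-U27 channels bright. PCDH9 was highest in P114 (6.58 ± 0.14), 2.54-fold above CMT-U309 (3 of 4 channels well above background), and at least 6.42-fold above CMT-U27, where no channel was well above background. Its other probe was bright in 3 channels of CMT-U309 and in none of P114, so the PCDH9 probes disagree on the order of these lines. PCDH8 ranged from 9.84 to 11.40 over the 12 channels, with CMT-U309 2.04-fold above CMT-U27, and its second probe was well above background only in 2 channels of CMT-U27. PCDH15 overlapped between P114 and CMT-U27, at 5.04 ± 0.45 and 5.03 ± 0.35.

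The beta protocadherins differed between the lines gene by gene along the cluster, and not as a block. The first of them with a probe, PCDHB2, read 3.04 and 4.97 in monoculture and 4.07 and 3.52 in co-culture of P114, with 1 of these 4 channels well above background. In CMT-U27 it read 11.06, 11.06, 11.07 and 11.23, and in CMT-U309 9.14, 8.78, 8.70 and 8.62. CMT-U27 lay above CMT-U309 by 4.91-fold. Above P114, CMT-U309 lay by at least 18.8-fold and CMT-U27 by at least 78.4-fold.

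PCDHB4 followed the same order. It read 8.16 and 8.30 in monoculture and 8.29 and 8.17 in co-culture of CMT-U27, 6.35, 6.49, 6.56 and 5.43 in CMT-U309, and between 2.04 and 3.01 in P114, where no channel was well above background. That made it 4.06-fold higher in CMT-U27 than in CMT-U309, where 3 of 4 channels were well above background, and at least 14.0-fold higher than in P114. PCDHB3 was at least 2.53-fold higher in CMT-U27 than in P114, where 1 of 4 channels was well above background, and 2.65-fold higher than in CMT-U309, where 3 of 4 were. PCDHB15 was at least 3.52-fold and 3.92-fold higher in CMT-U27 and in CMT-U309 than in P114.

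Their neighbors behaved otherwise. PCDHB5, between these genes, read 7.93 ± 0.07 in CMT-U27, 7.22 ± 0.13 in P114 and 5.87 ± 0.14 in CMT-U309 (SD, 4 channels), so that CMT-U309 was the lowest line, by 4.17-fold and 2.55-fold, with 3 of its 4 channels well above background. PCDHB7 was bright in all 12 channels and overlapped between the lines, with P114 at 9.41 ± 0.17, CMT-U27 at 9.25 ± 0.34 and CMT-U309 at 9.77 ± 0.44. PCDHB14 was at least 3.80-fold higher in P114 (5.96 ± 0.49) than in CMT-U27 (3.50 ± 0.51), where 1 of 4 channels was well above background. PCDHB6 was well above background in 2 channels of CMT-U309 and in none of the other lines. Thus P114 had low PCDHB2, PCDHB3, PCDHB4 and PCDHB15 together with the highest mean PCDHB14, and a PCDHB7 like that of the other lines.

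**Figure D3:**
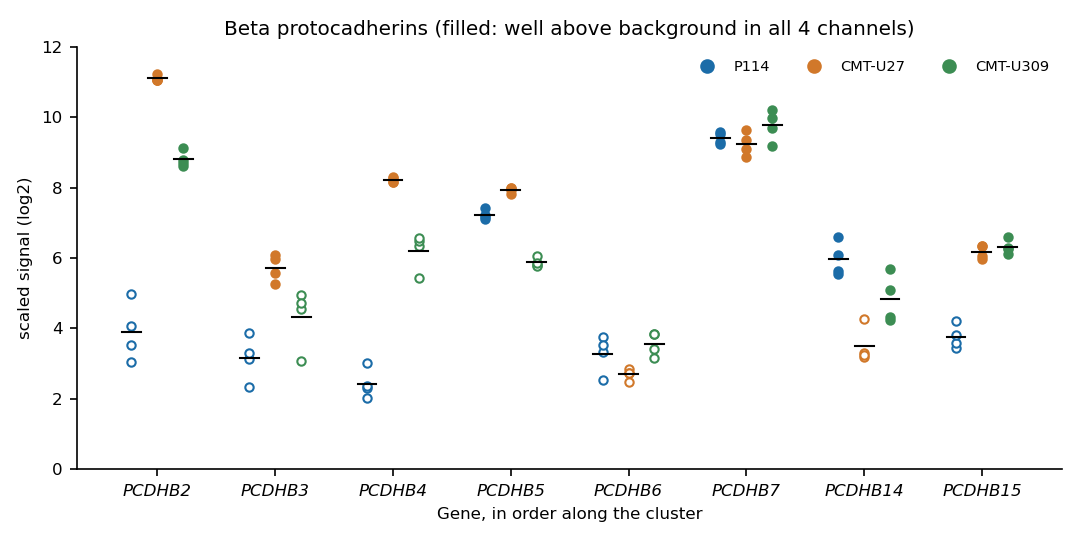
Scaled signal (log2) of the 8 beta protocadherins in their order along chromosome 2, with 4 channels per line as points and the mean as a bar. Filled points mark lines in which all 4 channels were well above background; PCDHB2 and PCDHB4 are lowest in P114, PCDHB5 in CMT-U309 and PCDHB14 in CMT-U27.

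Of the alpha protocadherins, 4 of 8 genes were well above background in no channel at their brightest probe. The gamma protocadherins were dim too. PCDHGA3 was the gamma gene detected most often, in 10 of 12 channels, and was 3.92-fold higher in P114 (5.29 ± 0.33) than in CMT-U309 (3.32 ± 0.46; 3 of 4 channels well above background), with CMT-U27 at 4.88 ± 0.43.

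Markers of cell type also differed between the lines. The summed scaled signal of the 5 epithelial markers on the array (KRT19, EPCAM, ESRP1, GRHL2 and CLDN4) was 106000 to 125000 in the channels of CMT-U27, 1190 to 1780 in P114 and 235 to 282 in CMT-U309, and 2 of the 5 were bright in no channel of P114 or of CMT-U309. That of the 7 mesenchymal markers, VIM, SPARC, COL1A1, COL1A2, COL3A1, PDGFRB and LUM, was 6660 to 9760 in CMT-U27, 268000 to 389000 in P114 and 445000 to 545000 in CMT-U309. All 7 were bright in at least 1 channel of every line. A sum mostly follows its brightest genes. Singly, all the epithelial markers had their highest mean level in CMT-U27, and all the mesenchymal markers except PDGFRB their lowest. PDGFRB averaged 6.76 in CMT-U27, 7.71 in P114 and 6.70 in CMT-U309. ESRP1 was higher in CMT-U309 (6.70) than in P114 (3.67), against the order of the sums. CDH13, CTNNA1, FAT4 and PCDH7 were thus low in the line with the highest epithelial and lowest mesenchymal sum. CDH11, low there too, was also low in P114, where the mesenchymal sum was high. The part of these markers in the members' levels was not tested.

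The second comparison asked whether these genes differed between co-culture with MDSC and monoculture. Few members did, and those were at or near background. Of the 64 member probes that passed the intensity filter, 2 (3.12%) were higher in co-culture at the thresholds of the study's methods, an unadjusted p under 0.05 and over 2-fold in limma's fit across all 40861 probes with n = 3 lines, where all probes gave 1.03%, and none was lower, where all probes gave 0.193%. An exact sign-flip test over 3 lines could not go below p = 0.25. At an unadjusted limma p under 0.05 alone, 2 of 64 (3.12%) passed, against 9.94% of all probes, and at an adjusted p under 0.05 none did, against 0% of all probes. The pair of probes that passed were well above background in at most 2 of the 12 channels.

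CDH20 (a type II cadherin) was one of them. Its brighter probe had log2 ratios of co-culture over monoculture of 1.54 and 0.18 on the P114 arrays, 1.62 and 1.84 on those of CMT-U27 and 0.00 and 1.67 on those of CMT-U309. The mean was 1.14 ± 0.41 (SE, n = 3 lines, limma, adjusted p = 0.499). Every SE of a ratio, here and below, is limma's moderated SE, which borrows spread from all probes. Of the 6 co-culture channels 1 was well above background, and of the monoculture channels none. On 2 of the arrays both channels held only a surrogate, and no fold bound above 1 could be given. A surrogate is the floor value that the scanner software puts in for a missing signal. The ratio of 2 surrogates differed by array. Over member probes with a surrogate in both channels it ran from 1.51 to 1.74 on CMT-U27 replicate 1, and from 0.22 to 0.49 on replicate 2. On CMT-U309 replicates 1 and 2 it ran from 0.45 to 0.72 and from 0.86 to 1.22. P114 replicates 1 and 2 gave -1.31 to -0.28 and -0.79 to 0.53. The CDH20 ratio of 1.62 on CMT-U27 replicate 1 is itself one of the values in the range of that array. With spots that held a surrogate in both channels left out, a setting added after seeing the data, the mean was 1.41. The probe then still passed the thresholds (limma, unadjusted p = 0.00809, adjusted p = 0.414). The brighter probe missed the thresholds without CMT-U27 (0.85), without P114 replicate 1 (0.91) and without CMT-U309 replicate 2 (0.86). It also missed them without CMT-U309 (1.30, with an unadjusted p over 0.05), with the deposited ratios (0.82) and with normexp background correction (0.06). The second CDH20 probe was well above background nowhere.

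PCDHAC2, of the alpha cluster, was the other by the annotation of the array. Whether its probes tell PCDHAC2 from the other alpha genes was not tested. The probe that passed had ratios of 0.81 and 0.06 in P114, 4.84 and -1.47 on the CMT-U27 arrays and 2.14 and 0.07 on those of CMT-U309, with a mean of 1.07 ± 0.37 (SE, n = 3 lines; limma, adjusted p = 0.499). In CMT-U27 the arrays of the dye-swap pair opposed each other. Without CMT-U27 replicate 1 the mean became 0.02, and without CMT-U27 replicate 2 it became 2.13. The probe also missed the thresholds without CMT-U27 (0.77), without CMT-U309 (1.06, with an unadjusted p over 0.05), without CMT-U309 replicate 1 (0.73) and without P114 replicate 1 (0.95). This probe stood well above background in 2 co-culture channels and no monoculture channel, which bounds the difference at 1.03-fold or more. The brightest PCDHAC2 probe gave -0.21 ± 0.32 and the remaining probe -0.38 ± 0.33 (SE, n = 3 lines), and neither passed the thresholds. The probes of this gene therefore disagree in sign.

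**Figure D4:**
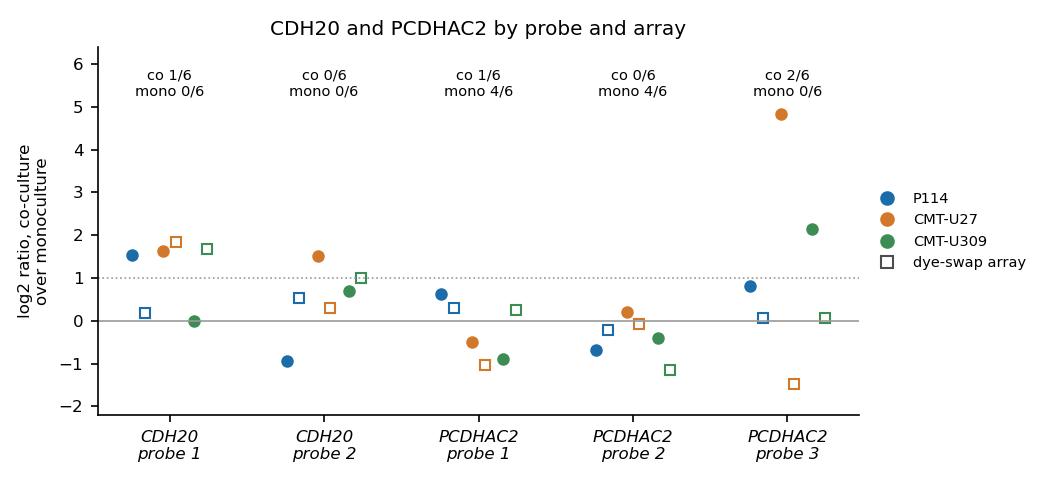
Log2 ratios of co-culture over monoculture on the 6 arrays for the 2 probes of CDH20 and the 3 probes of PCDHAC2, colored by line, with open squares for the dye-swapped arrays and, above each probe, the number of channels well above background. The dotted line marks 2-fold; the first CDH20 probe and the third PCDHAC2 probe are those that passed the thresholds.

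The median log2 ratio over the 52 member genes tested was 0.0026, against 0.0009 over all genes. Genes with a surrogate in both channels of some arrays are among the 52. With such spots left out the members' median was -0.02. For P114, CMT-U27 and CMT-U309 the members' medians were -0.17, 0.11 and 0.08, beside 0.01, -0.01 and 0.00 for all genes. By group the medians of the mean ratio were 0.14 for the CDH cadherins, 0.10 for the Fat, Dachsous and CELSR genes, 0.00 for the catenins, 0.03 for the non-clustered protocadherins, and -0.01, -0.10 and -0.01 for the alpha, beta and gamma protocadherins. Single genes ranged from -0.40 to 1.14 among the CDH cadherins and from -0.04 to 0.31 among the catenins. The group medians include genes bright in few or no channels, such as CDH5, CDH12 and CDH20. The 4 CDH cadherins bright in all 12 channels, CDH10, CDH13, CDH16 and CDH24, gave -0.20, -0.05, 0.02 and -0.04.

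The 12 member genes that were well above background in all channels give the most reliable ratios. None was over 2-fold, as with all but 18 of the 15888 genes measured so well, and the widest was FAT2, at 0.37 ± 0.18 (SE, n = 3 lines; limma, adjusted p = 0.501). By array FAT2 read -0.92 and 0.41 for P114, 0.45 and 0.94 for CMT-U27, and 0.31 and 1.04 for CMT-U309. FAT1 (0.30 ± 0.17), CTNND1 (0.31 ± 0.18) and CELSR2 (0.22 ± 0.15) came next. FAT1 was lower in co-culture on both P114 arrays, at -0.32 and -0.03, and higher on the other 4, between 0.43 and 0.60. CTNND1 was most different in CMT-U309, at 0.18 and 1.31.

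Of the genes that separated the lines, none passed the thresholds for co-culture. CTNNA1 gave -0.04 ± 0.14, CDH13 -0.05 ± 0.12, PCDH7 -0.04 ± 0.13 and PCDH8 0.07 ± 0.11 (SE, n = 3 lines). The means plus or minus 2 of these moderated SE stayed within 2-fold for all 4 genes. CDH10 was the lowest of the bright members, at -0.20 ± 0.19. CDH11, measured well in CMT-U309 alone, read 0.58 and 0.33 there. FAT4 gave -0.54 ± 0.28 (limma, adjusted p = 0.517), and its 3 line values had an SD of 0.95. Its arrays read -0.58 and -2.63 in CMT-U27, where it was dim, while P114 gave 0.20 and 0.21 and CMT-U309 -0.14 and -0.32.

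**Figure D5:**
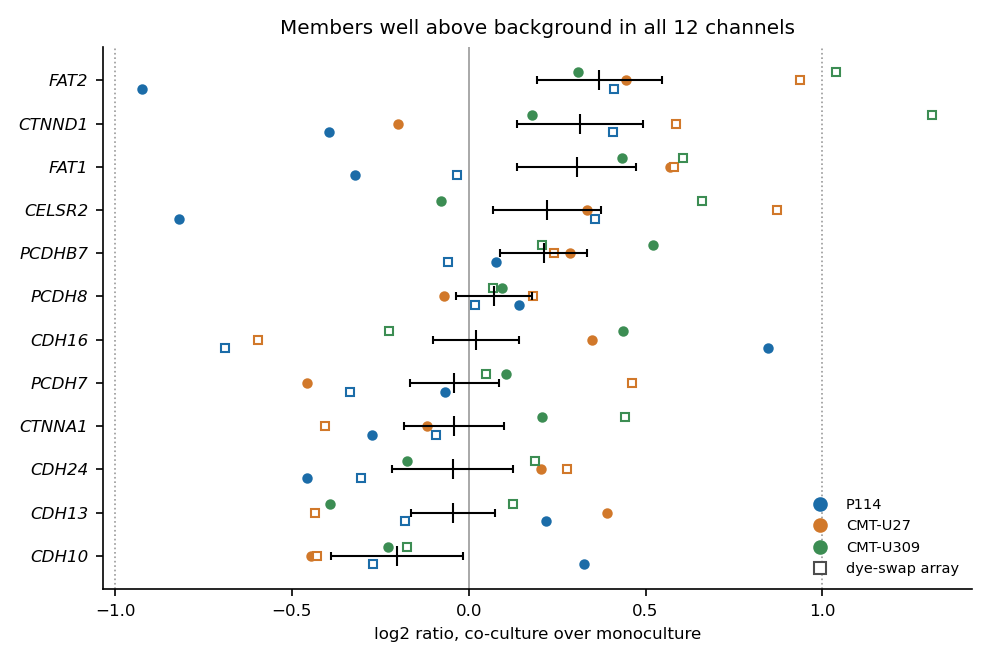
Log2 ratios of co-culture over monoculture for the 12 members well above background in all 12 channels, with 1 point per array colored by line, open squares for dye-swapped arrays, and the mean of the 3 lines with its moderated SE as a black bar. Dotted lines mark 2-fold in either direction; no mean reaches them, and FAT2, CTNND1 and FAT1 lie highest.

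The other named members did not pass the thresholds either. CDH3 was higher in co-culture on all 6 arrays, between 0.02 and 0.96, with a mean of 0.33 ± 0.21 (SE, n = 3 lines; limma, adjusted p = 0.566). CDH7 gave -0.22 ± 0.21, PCDH15 0.23 ± 0.22, PCDHB5 -0.06 ± 0.15, PCDHGA3 -0.29 ± 0.24, CDH16 0.02 ± 0.12, CTNND2 0.04 ± 0.27 and CTNNA3 -0.03 ± 0.30. CDH5, never above background, has no ratio to read.

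Without P114, whose arrays oppose each other, more passed, but the fit then rests on 2 lines and on the spread borrowed from all probes. In it 5 of 64 member probes (7.81%) were over 2-fold higher at an unadjusted limma p under 0.05, against 5.14% of all probes. They were CDH20, PCDHAC2, CDH6, PCDHA13 and PCDH20, none of them well above background in more than 3 of the 12 channels. PCDHA13 and PCDH20 were so in no channel, and each held a surrogate in both channels of 4 of the 6 arrays. At an adjusted p under 0.05, 8 of 64 (12.5%) passed, against 15.8% of all probes. FAT2 (0.68 ± 0.09 SE; limma, adjusted p = 0.000738) and FAT1 (0.55 ± 0.13; adjusted p = 0.0146) were among them, were bright in all 12 channels and were higher in co-culture on all 4 arrays. The 2 probes of CELSR2 both passed, in opposite directions, at 0.45 ± 0.10 for the brightest, which was also bright in all 12 channels, and at -0.63 ± 0.19. FAT4 passed at -0.92 ± 0.23 at its brightest probe. The line means of that probe were -1.61 in CMT-U27, where 2 of 4 channels were bright, and -0.23 in CMT-U309. The second FAT4 probe gave -0.37 ± 0.21 and did not pass (limma, adjusted p = 0.221).

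Of the partners of these genes, none passed the thresholds in either direction. They were 13 junction partners (beta-catenin, plakoglobin, nectins, vinculin, alpha-actinins and others), 12 Fat and Hippo genes, 8 planar polarity genes and 4 genes of cadherin shedding. ACTN1, an alpha-actinin, came closest, at 0.91 ± 0.26 (SE, n = 3 lines). Of 9 leukocyte markers, the lines had 2, 3 and 2 well above background in all 4 channels (P114, CMT-U27 and CMT-U309), and none passed the thresholds. Their summed signal was 13500 to 13600 in co-culture and 7650 to 7990 in monoculture of CMT-U27, and overlapped between the cultures of the other lines. S100A8 made most of it, since its mean level in CMT-U27 was 13.06. ITGAM and LYZ, both markers of myeloid cells, were bright in no channel, and the part of MDSC RNA in any ratio was not tested.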

How the data were processed

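Total RNA of 3 canine mammary tumor lines, in co-culture and monoculture, was hybridized in dye-swap pairs to Agilent 4x44K arrays. The authors deposited scanner files with processed signal intensity per spot (Feature Extraction 10.10.1.1 in the file headers, 10.7.3.1 in the submitters' notes) and a value table of log10 ratios, whose columns the authors had turned to co-culture over monoculture. Coordinates are canFam2. Of 57 member symbols, 35 were in the RefSeq gene table used here.

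Outlier spots were left out, spots of a probe averaged, channels scaled to a common median, and ratios turned by the dyes. Probes with a maximal intensity over 10 were kept. A dye-swap pair counted as 1 value per line. limma 3.58.1 (R 4.3.3) tested the mean of the 3 lines against 0, with a trend and Benjamini-Hochberg adjustment. Nothing says that lines had replicate cultures, so p-values rest on the spread between lines, moderated by limma with that of all probes. The SE of a mean ratio was moderated in the same way and can lie below or above that of the line values alone. The SD of the line values was 0.95 for FAT4, 0.54 for FAT2 and 0.01 for PCDH8. The fit was tested on simulated data.

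Named genes were, by brightest probe, those past the thresholds or in the study's gene list, the 10 with the widest range between lines and the 5 highest and 5 lowest ratios among genes bright in at least 10 of 12 channels, and the catenins with CDH3, CDH5, CDH11 and CDH13. Other named members were chosen after their values were seen, and members and lists were chosen with earlier results of these data known. Replicate numbers mark the dye orientation in the labels, and same-numbered arrays deviated together (correlations of 0.29, 0.57 and 0.44). Alternatives varied background correction, scaling, filter, test, block, probe choice and the arrays used. Array number limits the precision.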

Additional observations from a re-analysis of the deposited data

Results flagged for a closer look

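For the brightest probes of 8 members, both arrays of one line lay on one side of 0 and both arrays of another line on the opposite side, with all 8 channels of these lines well above background. The difference between lines was not tested, and the share of all genes that met this rule was not counted. Over all probes bright in all channels, the mean ratios of P114 correlated at -0.23 with those of CMT-U27 and at -0.22 with those of CMT-U309. Ratios opposed to those of P114 were therefore not confined to these members. The values are differences of mean log2 ratios of co-culture over monoculture. P114 minus CMT-U309 was 0.43 for FAT4, -0.28 for PCDH7, -0.51 for CTNNA1 and -0.7 for FAT1. P114 minus CMT-U27 was -0.75 for FAT1, -0.62 for CDH24, -0.28 for PCDHB5 and -0.36 for CDH7. CMT-U27 minus CMT-U309 was -0.59 for CTNNA1 and 0.39 for PCDHB2.

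Of these 10 differences, 8 involve P114, whose arrays had opposed ratios over all probes. If the sign of either P114 array were turned, its 2 arrays would lie on opposite sides of 0 for these genes, and none of the 8 would stand out in this way.

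Other probes of these genes did not all give the same picture. The CTNNA1 probe whose sequence is printed as the first was above 0 on both P114 arrays, at 0.13 and 0.11. Its CMT-U27 arrays (-0.17 and -0.41) and CMT-U309 arrays (0.04 and 0.55) kept to opposite sides. The one printed as the second had arrays of mixed sign in every line. The second FAT4 probe was above 0 in both P114 (0.07 and 0.17) and CMT-U309 (0.31 and 0.03), and the second PCDH7 probe read -0.29 and 0.01 in P114.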

How the results depend on the processing

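Of the 2 member probes higher in co-culture, 1 was left with the deposited log10 ratios, with 6 arrays and no replicate block, and when a gene's probes were summarized by their median, and 0 with normexp and loess, with probes bright in at least 6 channels, and with the methods' t-test. A fit of the 6 arrays with the replicate block (dye orientation) kept 2 and changed no call of a member. The fits of 6 arrays held no term for the line and counted the 2 arrays of a line as separate values. Leaving out a line or an array gave 0 (without CMT-U27) to 5 (without P114) higher and 0 to 1 lower (PCDH19, without CMT-U27). Over all probes, 421 higher and 79 lower became 3 and 0 with normexp, 280 and 87 with the deposited ratios, 37 and 53 with bright probes, 83 and 35 with the t-test, 270 and 74 without the block, 847 and 105 without surrogate spots (added after seeing the data), and 31 to 2100 and 50 to 701 without a line or array. The members' median stayed between -0.0468 and 0.0792. Between P114 and CMT-U309, 6 members apart became 12 in monoculture channels alone, 3 at 4-fold and 9 without the background flag, and 6 to 11 without an array. Between CMT-U27 and CMT-U309, 11 became 19 in monoculture channels and 18 without the flag. With fewer channels per line, or without the flag, the rule is looser. All genes were not counted under these settings, so the higher counts do not show that the lines differ more in monoculture. Dim signal limits most ratios, and the causes were not tested.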
